A study of Mus musculus with 2 samples.

Results

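The replication-dependent histone genes are the gene copies that supply most histone protein to dividing cells. They were studied here in a CUT&Tag profile of the acetyltransferase KAT8 in mouse macrophages. Of 21887 protein-coding genes in the RefSeq annotation of mm10, 71 were histone genes by name. Of these, 67 carry a current symbol of the H1f, H2ac, H2bc, H3c or H4c series and 4 (H2aw, H2bu2, H4bc24 and H4f16) were found by an older symbol beginning with Hist. H4bc24 has the older symbol Hist1h2br and was counted with H2B. By class there were 10 H1, 18 H2A, 18 H2B, 12 H3 and 13 H4 genes. The naming rule also takes in the linker histone genes H1f0, H1f7, H1f8 and H1f10, which lie outside the clusters and are not replication-dependent. Peaks were assigned to a gene where any base lay 1000 bp or less from its start or its end. The genes were chosen by name, and the group was selected on its peak counts in these lists, so those counts are given as a description with no test.

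The cells were wild-type primary macrophages grown from bone marrow in 20 ng/ml M-CSF, the growth factor of the lineage. One group received 100 ng/ml R848, a TLR7 agonist, for 2 h (1 library) and the other was left untreated (1 library). Strain, sex and age are not stated in the sources used here, and cell identity was not checked, because peak lists hold no expression values. KAT8, also called MOF, acetylates a lysine in the tail of histone H4, and in CUT&Tag an antibody against the protein of interest guides a transposase to the chromatin around it. With 1 library per group there is no replicate check, and no difference below has a p-value. The peak names in the R848 list carry both time points and those in the untreated list only the earlier one. What the names stand for is not given in the sources used here, so each list was assigned by its sample label, and every value called R848 below rests on that label.

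Replication-dependent histone genes are short, lie in dense clusters and are transcribed mainly in S phase, when new DNA is packaged. H2A, H2B, H3 and H4 form the nucleosome core, and H1 binds the linker DNA between nucleosomes. Their messenger RNAs end in a stem-loop in place of a poly(A) tail. H2A and H2B genes are often arranged head to head across a shared promoter.

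The promoters below are those nearest to the strongest peak of each class, among genes with an annotated start site. Each is the RefSeq promoter (GRCm38.p6) of the gene whose start site was nearest to the summit of the highest-fold peak among peaks nearest to that class. The H2B genes H2bc21 (untreated fold 8.0) and H2bc4 (5.95) had stronger peaks than H2bc23 but no start site, so they could not be chosen. The 250 bases before the start site are given 5′ to 3′ on the gene's own strand; the peaks at H1f4 and H4c9 lie mostly past the start site, outside the bases shown. Capitals mark, on either strand, TATAAA (the TATA box), CCAAT, the octamer ATTTGCAT, AAACACA (an element of H1 promoters) and GGTCCG (an element of H4 promoters). H1f4 lies at chr13:23622559-23622808 (minus strand), H2ac20 at chr3:96220881-96221130 (minus), H2bc23 at chr13:21810200-21810449 (minus), H3c15 at chr3:96239128-96239377 (minus) and H4c9 at chr13:22041363-22041612 (minus).
H1f4: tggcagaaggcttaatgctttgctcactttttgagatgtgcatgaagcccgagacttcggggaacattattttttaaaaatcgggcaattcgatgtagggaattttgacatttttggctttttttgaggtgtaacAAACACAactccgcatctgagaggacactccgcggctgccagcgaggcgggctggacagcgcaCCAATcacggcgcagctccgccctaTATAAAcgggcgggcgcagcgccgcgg
H2ac20: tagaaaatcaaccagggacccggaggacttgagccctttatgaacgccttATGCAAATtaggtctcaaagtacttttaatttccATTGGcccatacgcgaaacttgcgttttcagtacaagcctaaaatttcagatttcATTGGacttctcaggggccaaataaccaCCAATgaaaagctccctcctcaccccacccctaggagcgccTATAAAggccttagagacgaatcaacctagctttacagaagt
H2bc23: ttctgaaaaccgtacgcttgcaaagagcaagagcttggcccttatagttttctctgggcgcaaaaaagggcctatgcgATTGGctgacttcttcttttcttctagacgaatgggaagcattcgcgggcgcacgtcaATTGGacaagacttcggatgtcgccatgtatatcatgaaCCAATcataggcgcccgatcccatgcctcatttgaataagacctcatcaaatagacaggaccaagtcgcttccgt
H3c15: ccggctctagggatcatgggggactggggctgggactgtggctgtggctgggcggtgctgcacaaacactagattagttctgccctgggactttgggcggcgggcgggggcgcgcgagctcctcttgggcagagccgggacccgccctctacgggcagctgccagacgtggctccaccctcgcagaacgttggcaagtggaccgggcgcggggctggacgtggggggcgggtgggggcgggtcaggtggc
H4c9: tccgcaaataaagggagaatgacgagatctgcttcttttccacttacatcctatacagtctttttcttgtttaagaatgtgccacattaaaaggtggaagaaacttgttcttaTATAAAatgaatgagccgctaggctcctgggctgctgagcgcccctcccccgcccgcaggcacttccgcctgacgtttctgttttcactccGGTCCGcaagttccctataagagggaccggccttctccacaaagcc

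The H1f4 stretch held the H1 element, a CCAAT box and a TATA box. The H2ac20 stretch, which reaches across the gap to H2bc21, held an octamer, CCAAT boxes and a TATA box. H2bc23 held CCAAT boxes alone, H4c9 a TATA box and the H4 element, and the H3c15 stretch none of these letters. Promoter sequences of 300 bases, which run 50 bases past the start, were available for 66 of the 71 genes. H2bc21, H4c14, H3c7, H2bc4 and H3c1 had none. Over those windows CCAAT was found in 18 of 18 H2A, 16 of 16 H2B and 10 of 10 H3 promoters (for H3c15, in the bases after the start site), in 7 of 10 H1 promoters and in 3 of 12 H4 promoters, against 37.4% of all 32851 promoters in the table. GGTCCG was found in 11 of 12 H4 promoters (91.7%), against 8.25% of all promoters. The octamer was found in 7 of 18 H2A and 6 of 16 H2B promoters and in no H1, H3 or H4 promoter, against 1.74% of all. A TATA box was found in 35 of the 66 (53%), against 13.6% of all. AAACACA was found in 5 of 10 H1 promoters, against 7.18% of all. Letters in a window are a description and do not show that a factor binds there.

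KAT8 peaks were found at most histone genes, and at fewer of them in R848-treated than in untreated macrophages. A peak lay at 41 of the 71 genes (57.7%) in the R848 list and at 60 (84.5%) in the untreated list. Among all protein-coding genes the shares were 24.4% and 28.8%. All 41 genes with an R848 peak also had an untreated peak (57.7% of histone genes, against 17.3% of all genes with a peak in both lists). A further 19 genes (26.8%, against 11.5% of all genes) had an untreated peak and no R848 peak, and 0 had the reverse (7.11% of all genes). Among genes with an untreated peak, 19 of 60 histone genes had no R848 peak, against 2509 of 6301 over all protein-coding genes. Counted that way, the share was lower for histone genes. Most protein-coding genes are far longer than histone genes, and 1516 other protein-coding genes of up to 1000 bp had a peak in 4.09% (R848) and 5.34% (untreated) of cases. The 61 histone genes of that length had one at 36 and 54. Of these, 36 were in both lists, 0 in the R848 list alone and 18 in the untreated list alone, against 1.65%, 2.44% and 3.69% of the other short genes. Among short genes with an untreated peak, 18 of 54 histone genes and 56 of 81 others had no R848 peak. The other short genes were matched by length only, and whether they are active in macrophages was not examined. No control or accessibility library was analysed here, so KAT8 binding and cutting of open chromatin cannot be told apart. Nor can fewer cells with bound KAT8 and less KAT8 per cell.

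**Figure D1:**
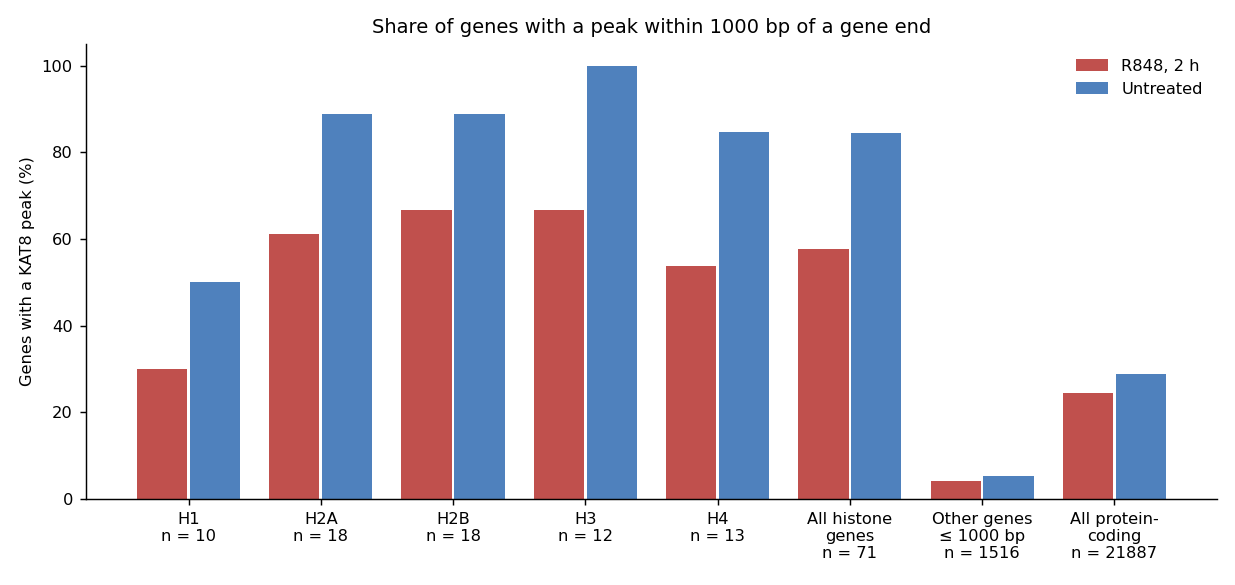
Percentage of genes (y axis) with a KAT8 peak in the R848 (left bar) and untreated (right bar) library for each histone class, for all 71 histone genes, for 1516 other genes of up to 1000 bp and for all 21887 protein-coding genes, with 1 library per group and no error bar. H3 reached 100% in the untreated library, and every class was lower in the R848 library than in the untreated one, but with q of 0.05 or less H1 is at 3 of 10 genes in each.

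The level at which peaks were called differed between the libraries. Each peak has a deposited fold, the signal at its summit over the local background. The pileup, the number of fragments over the summit, and the background were solved from that fold and the deposited p-value. The lowest background was 2.62 overlapping fragments in the R848 library and 3.37 in the untreated library, a ratio of 0.777. The lowest pileup called was 7 (R848) and 8 (untreated). Depth, duplicate removal and stimulation cannot be told apart with 1 library each.

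Each histone class had genes with a peak in both lists. Of 12 H3 genes, 8 had a peak in the R848 list and 12 in the untreated list. H2B genes had 12 and 16 of 18, H2A genes 11 and 16 of 18, and H4 genes 7 and 11 of 13. Of 10 H1 genes, 3 and 5 had a peak. The 4 H1 genes outside the clusters had none. On chromosome 13 alone the counts were 3 (R848) and 5 (untreated) of 6 for H1, 7 and 12 of 13 for H2A, 10 and 14 of 15 for H2B, 5 and 9 of 9 for H3, and 6 and 9 of 11 for H4. There the H1 shares, 50% and 83.3%, were near those of H4, 54.5% and 81.8%. Of the core histone genes, H4c11, H4c2, H2aw, H2bu2, H2ac1 and H2bc1 had no peak in either list. Of the H1 genes on chromosome 13, H1f1 alone had none, and its nearest peak lay 2030 bp away in the R848 list and 1136 bp away in the untreated list.

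A peak often lay at several of these closely spaced genes. The 41 genes in the R848 list shared 31 distinct peaks, of which 20 lay at 2 or more histone genes, and the 60 genes in the untreated list shared 46 distinct peaks, of which 28 did. By class, the distinct peaks numbered 16 (R848) and 22 (untreated) at H2A genes, 13 and 18 at H2B genes, 10 and 17 at H3 genes, 7 and 12 at H4 genes, and 5 and 6 at H1 genes, so a peak can appear under more than 1 class. The most frequent combination was a peak at an H2A and an H2B gene together (9 R848 and 11 untreated peaks). There were 12 pairs of neighbouring H2A and H2B genes with a gap of 163 to 280 bp. Of these pairs 10 were head to head and 2 could not be oriented here. One peak lay at both genes of the pair in 8 of 12 cases in the R848 list and 11 of 12 in the untreated list. H2ac1 with H2bc1 was the pair with none in the untreated list. The gaps are shorter than the 1000 bp window, so a peak at either gene of a pair usually counts at its partner too. The summit lay in the gap itself in 2 pairs (R848) and 0 pairs (untreated).

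**Figure D2:**
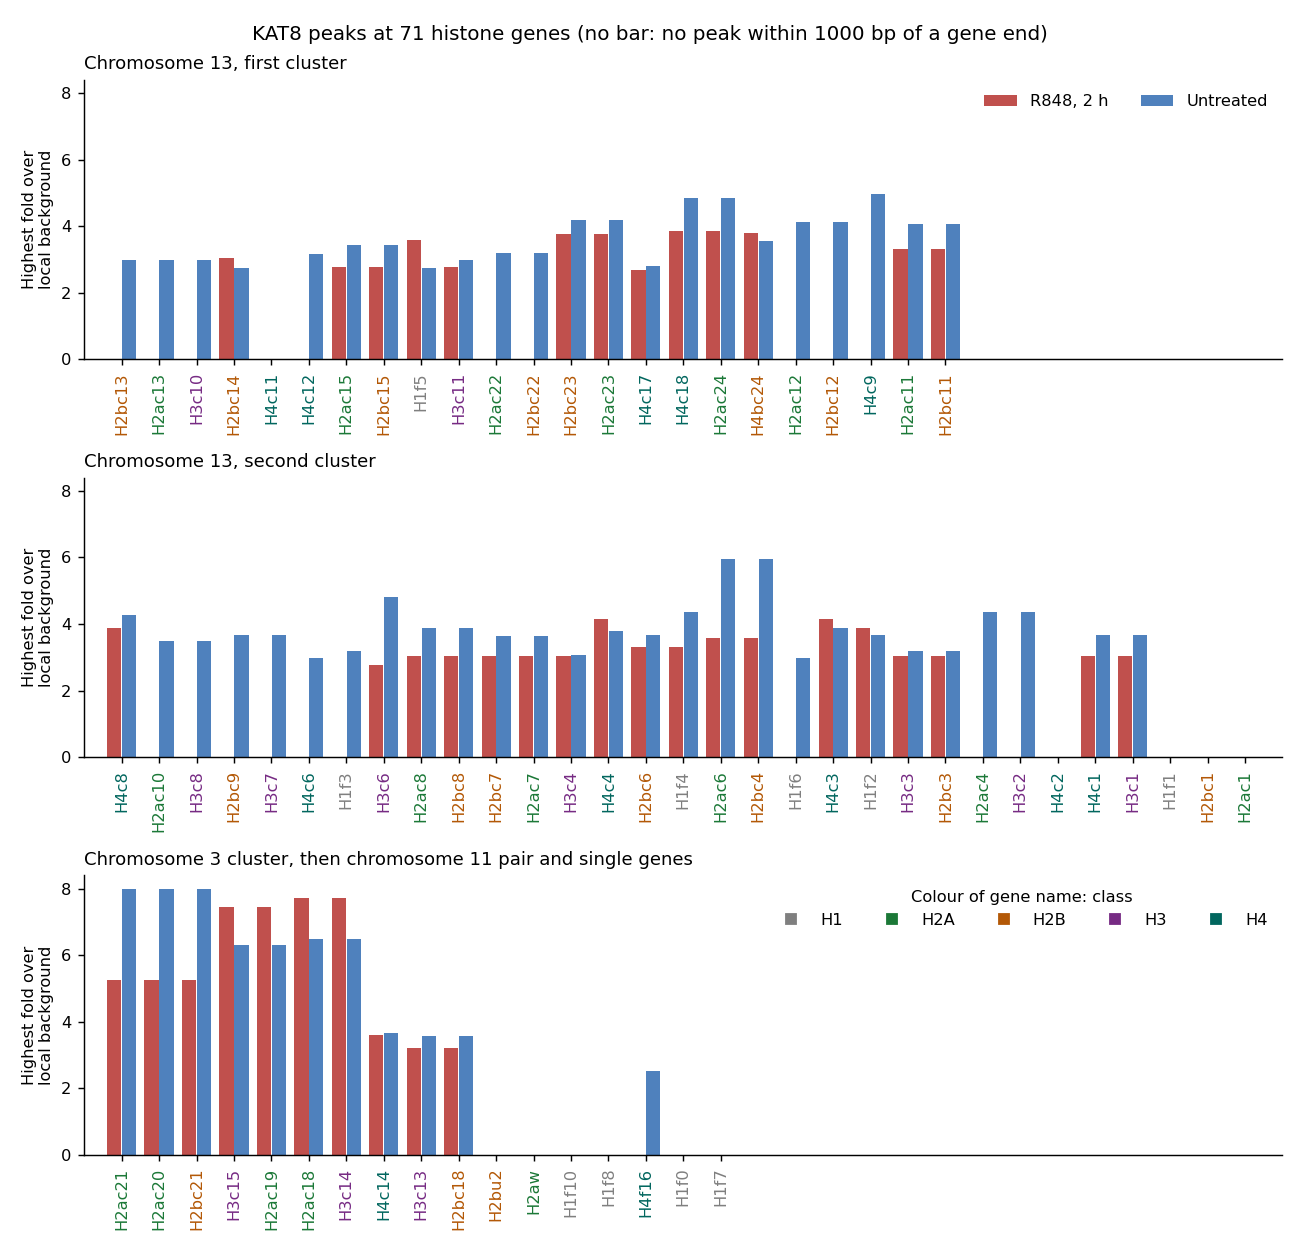
Highest fold over local background (y axis, bars from 0) among the peaks at each of the 71 histone genes in the R848 (left bar) and untreated (right bar) library, in genome order, with gene names coloured by class and no bar where no peak was called. The chromosome 3 genes from H2ac21 to H3c14 have the tallest bars, up to 7.73 (R848) and 8.0 (untreated), and 19 genes have an untreated bar only.

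The compact cluster on chromosome 3 was the only one with a peak at every gene in both lists. All 10 of its genes had one, served by 7 R848 and 6 untreated peaks. The cluster on chromosome 13 had 31 (R848) and 49 (untreated) of 54 genes, served by 24 and 39 distinct peaks. Split where neighbouring members were at least 200 kb apart, its first part (chr13:21715711-22043658) had 13 and 22 of 23 genes and its second part (chr13:23531044-23934913) had 18 and 27 of 31. On chromosome 11, H2aw and H2bu2 had no peak in either list. Of the 5 genes outside the clusters, H4f16 on chromosome 6 had an untreated peak only (fold 2.52). Its −log10 q was 0.462, q being the peak's p-value after adjustment for the number of tests. Within the first chromosome 13 part there were 42.7 R848 and 57.9 untreated peaks per Mb, and within the second 44.6 and 71.8, against 14.2 and 20.3 over the chromosome. The chromosome 3 cluster, 50.3 kb long, held 159 and 139 peaks per Mb, against 15.8 and 18.9 over that chromosome. The higher R848 density there does not mean more places: at H3c15 with H2ac19, and at H2ac18 with H3c14, the R848 list had 2 peaks and the untreated list 1. With overlapping peaks merged, the histone peaks of this cluster formed 6 loci, 5 in both lists, 0 in the R848 list only and 1 in the untreated list only. These spans hold many gene ends. The 3 and 6 other protein-coding genes inside the chromosome 13 parts had no R848 peak. Hfe, an iron-homeostasis gene, and Slc17a1, a phosphate transporter gene, had an untreated peak of fold 2.75 each.

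The deepest peaks lay at a pair of near copies on chromosome 3. At H2ac18, which encodes H2A, the R848 peak (chr3:96245106-96246019) had a fold of 7.73 and a pileup of 69 fragments, and the untreated peak (chr3:96245213-96247109) a fold of 6.48 and a pileup of 73. At H3c14, an H3 gene beside it, the R848 list had a second peak of fold 5.53, and the untreated peak reached across both genes. At H2ac19 and H3c15 the R848 list again had 2 peaks, of fold 7.46 and 6.08, and the untreated list 1 peak of fold 6.31. The highest pileups there were 60 in the R848 library and 70 in the untreated library. At both places the R848 pileup was below the untreated one by less than the ratio of the lowest backgrounds. H2ac18 and H2ac19 share 70.1% of the 30-base words of their promoters, and H3c14 and H3c15 share 83.4%. Reads from such copies may not be placed uniquely, how they were placed is not given in the sources used here, and its part in these pileups was not tested.

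The rest of the chromosome 3 cluster flanks these copies on both sides. A single peak at H2ac21, H2ac20 and H2bc21 had a fold of 5.25 and a pileup of 18 in the R848 library and a fold of 8.0 and a pileup of 35 in the untreated library. The summits lay 132 bp (R848) and 94 bp (untreated) inside H2ac20 from its start site. At H4c14, an H4 gene, the folds were 3.59 (R848) and 3.66 (untreated), with pileups of 12 and 15. H3c13, an H3 gene, and H2bc18, an H2B gene, shared a peak of fold 3.23 (R848) and 3.57 (untreated), with pileups of 11 and 15. The untreated list alone held another peak there (fold 2.98), with its summit at −3 bp from the start site of H2bc18.

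On chromosome 13 the highest untreated fold was at the H2A and H2B genes H2ac6 and H2bc4, with 3.59 in the R848 list and 5.95 in the untreated list, and pileups of 12 and 25. H4c18, an H4 gene, had a fold of 3.87 (R848) and 4.86 (untreated), with pileups of 14 and 30. H2bc23 and H2ac23 had 3.77 and 4.20, with pileups of 17 and 31. At each of these 3 places the R848 pileup was the lower by more than the ratio of the lowest backgrounds. The promoter of H2bc23 is identical over its 300 bases to that of H4bc24, and 94.5% of the words of H4c17 and of H4c18 recur in another promoter, so the caution on near copies holds here too. Of the 66 promoters, 14 shared any 30-base word with another promoter of the table and 52 shared none.

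Among H4 genes, whose product carries the lysine that KAT8 acetylates, H4c4 and H4c3 had the highest R848 fold (4.14 each, against 3.78 and 3.89 in the untreated list). Their pileups were 14 and 14 (R848) and 17 and 16 (untreated). H4c8 had 3.87 (R848) and 4.28 (untreated). Among H1 genes, H1f2 had a fold of 3.87 in the R848 list and 3.66 in the untreated list, with pileups of 13 and 15. H1f4 had a peak inside the gene of fold 2.49 (R848) and 4.35 (untreated), with pileups of 8 and 18, and another before its neighbour H2bc6. Among H3 genes on chromosome 13, H3c6 stood out in the untreated list, with a fold of 2.76 (R848) and 4.81 (untreated) and pileups of 9 and 20. H1f5 counted as present in both lists, but the peaks did not overlap: the R848 peak (fold 3.59) had its summit 1140 bp after the start site, beyond the gene's end, and the untreated peak (fold 2.75) 230 bp after it, inside the gene. H4c1 and H3c1 likewise had a peak between them in the R848 list (3.04) and a peak at each gene in the untreated list (3.66 each).

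The untreated-only genes were spread over all classes, and each lay on chromosome 13 except H4f16. H4c9 led with a fold of 4.96 and a pileup of 23. H2ac4 and H3c2, an H2A and an H3 gene, shared a peak of 4.35 (pileup 18), and H2ac12 and H2bc12 one of 4.12 (pileup 17). H2bc9 and H3c7 shared one of 3.66 (pileup 15), H2ac10 and H3c8 one of 3.50 (pileup 16), and H1f3, a linker histone gene, had one of 3.20 (pileup 13). H2ac22, H2bc22, H4c12, H1f6, H2ac13, H2bc13, H3c10 and H4c6 had folds of 2.98 to 3.20. With q of 0.05 or less required in both lists, 26 (R848) and 51 (untreated) genes had a peak, against 15.1% and 16.7% of all genes. Then 25 genes (10.5% of all genes) had one in both lists, 26 (6.15%) in the untreated list only and 1, H1f5, in the R848 list only (4.6%). Among genes with an untreated peak of that q, 26 of 51 histone genes had no such R848 peak, against 1346 of 3647 over all genes. Here the share was higher for histone genes. At that q the H1 counts were equal, 3 of 10 genes in each list, and H3 fell to 3 of 12 in the R848 list, against 10 of 12 in the untreated list. With the q limit on 1 list and none on the other, 13 genes had an untreated peak of that q with no R848 peak, and 0 the reverse. The share of all genes under that rule is not given here, so these 13 genes have no comparison.

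Merged across the lists, the histone peaks formed 48 separate loci, of which 25 (52.1%) were in both lists, 2 (4.17%) in the R848 list only and 21 (43.8%) in the untreated list only. Over all 7764 loci at gene ends these shares were 39.5%, 24.3% and 36.2%. Of the distinct R848 peaks 29 of 31 overlapped an untreated peak (93.5%, 95% exact binomial interval 78.6 to 99.2), against 62.1% of all R848 gene-end peaks. Of the distinct untreated peaks 25 of 46 overlapped an R848 peak (54.3%, 39.0 to 69.1), against 52.3%. Intervals cover counting error only.

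At each of the 25 loci found in both lists, the R848 pileup was below the untreated pileup. Their pileups summed to 402 fragments in the R848 library and 586 in the untreated library, a ratio of 0.686. Each sum adds the highest summit pileup per locus, at loci called in both lists, so no interval is given. Over the 3065 gene-end loci in both lists the ratio of sums was 0.835. The median ratio of R848 to untreated pileup was 0.643 at histone loci (range 0.444 to 0.945) and 0.833 at gene-end loci, where R848 was above untreated in 19.6%. With untreated pileups scaled by the ratio of the lowest backgrounds, R848 was above at 7 of 25 histone loci and at 59.3% of gene-end loci. The ratio of sums was 0.609 and 0.618 for the chromosome 13 parts and 0.817 for chromosome 3, and all 3 are single-library values. Most of the chromosome 3 sums, 170 (R848) and 208 (untreated), came from the near copies, with pileups of 60 and 69 (R848) and 70 and 73 (untreated). The other chromosome 3 loci in both lists had ratios of 0.514, 0.8 and 0.733, so the higher value for that cluster rests on the near copies. At the 21 untreated-only loci the pileups ran from 10 to 23 with a median of 13.

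**Figure D3:**
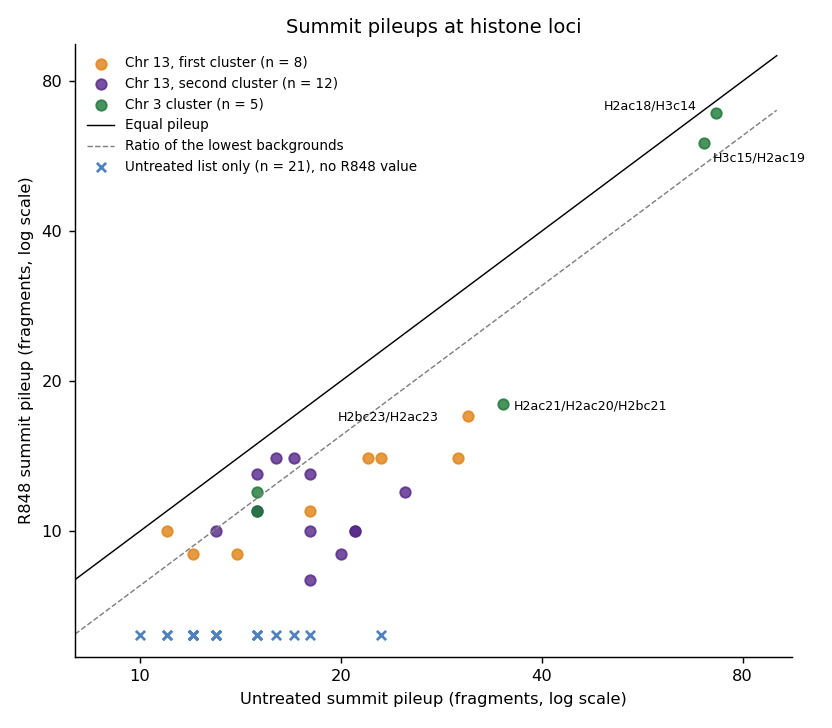
Summit pileup in fragments in the R848 library (y axis, log scale) against the untreated library (x axis, log scale) at the 25 histone loci found in both lists, coloured by cluster, with crosses at the foot for the 21 loci of the untreated list only, which have no R848 value. All 25 points lie below the line of equal pileup and 7 lie above the dashed line, whose slope is the ratio of the lowest backgrounds, 0.777.

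Histone peaks had folds like those of other gene-end peaks in the R848 list and somewhat above them in the untreated list. The median fold was 3.32 for R848 histone peaks, against 3.32 for all R848 gene-end peaks, and 3.61 for untreated histone peaks, against 3.20. A q of 0.05 or less was reached by 18 of 31 R848 histone peaks (58.1%, against 58.4%) and by 34 of 46 untreated ones (73.9%, against 54.1%). The median width was 312 bp in the R848 list, against 357.5 bp, and 451 bp in the untreated list, against 359 bp.

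Most summits lay inside the genes. Of the distinct peaks, 20 of 31 in the R848 list (64.5%, exact binomial interval 45.4 to 80.8) and 37 of 46 in the untreated list (80.4%, 66.1 to 90.6) had the summit inside a histone gene. The nearest annotated start site was within 500 bp for 28 of 31 R848 and 43 of 46 untreated summits. Over all summits the median position was 92 bp (R848) and 97.5 bp (untreated) after it. H4 summits lay at or after the start site in 5 of 6 (R848) and 10 of 11 (untreated) cases, with medians of 104.5 bp and 124 bp. The exception in the untreated list was the peak over H3c1, which has no start site in the promoter table. H2B summits lay before the start site in 5 of 6 R848 cases and 4 of 10 untreated cases, with a median of −177.5 bp (R848) and 25 bp (untreated). Summits of H1 genes lay after the start site in all 4 and all 5 cases.

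**Figure D4:**
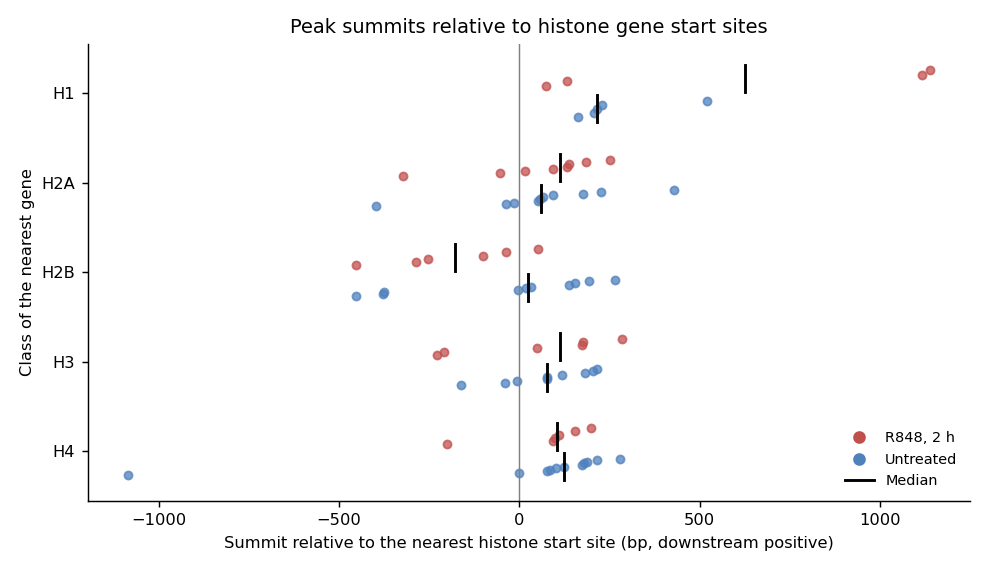
Distance in bp (x axis) from the nearest annotated histone start site to the summit of each distinct peak, downstream positive, by class of that gene, for the R848 (upper points) and untreated (lower points) library, with black bars for medians; 30 of 31 and 45 of 46 peaks are shown. H4 summits gather after the start site, with medians of 104.5 bp (R848) and 124 bp (untreated), and the H2B median is before it in the R848 library (−177.5 bp) and after it in the untreated library (25 bp).

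The 1000 bp window set which genes counted as having a peak. The R848 peaks nearest its edge lay 936 bp from H3c3 and 929 bp from H2ac7 (fold 3.04 each), and the next ones out lay 1051 bp from H3c4 and 1235 bp from H2bc6. In the untreated list these distances were 884 bp (H2ac10) and 872 bp (H3c2) inside, and 1021 bp (H2bc6) and 1038 bp (H4c17) outside. Each of the peaks outside was already counted at another histone gene.

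Genes for proteins that process, carry or replace histones were listed beside the histone genes. Of all protein-coding genes, 24.4% had an R848 peak, 28.8% an untreated peak, 17.3% both, 7.11% an R848 peak only and 11.5% an untreated peak only. Of 15 histone mRNA processing factors, 8 (53.3%) had a peak in each list and 7 (46.7%) in both. Slbp, which encodes the protein that binds the histone stem-loop, had a fold of 4.76 (R848) and 4.81 (untreated). Npat, the coactivator of histone gene transcription, had 4.42 and 3.20, Cpsf2, a cleavage factor subunit, 4.14 and 3.66 and Sympk, its scaffold, 2.49 and 3.66. Of 15 histone chaperones, 8 (53.3%, R848) and 10 (66.7%, untreated) had a peak, 8 of them in both lists. Asf1b, an H3-H4 chaperone of dividing cells, had a fold of 7.18 (R848) and 6.87 (untreated), the highest of the chaperones in each list. Its paralogue Asf1a had 4.97 and 6.18, Daxx, which deposits H3.3, had 3.72 and 5.45, and Chaf1b, a subunit of the replication-coupled assembly factor CAF-1, had 5.25 and 3.66. Ssrp1, a subunit of FACT (fold 4.26), and Nap1l1 (fold 2.75, −log10 q 0.831) had one in the untreated list alone. Of 9 genes for replication-independent histone variants, 6 (66.7%, R848) and 5 (55.6%, untreated) had a peak. H2az2 (5.53 and 5.95), H2az1 (3.87 and 5.26), H3f3a (4.42 and 4.81) and H2ax (3.91 and 3.20) had one in both lists. H3f3b (fold 3.18) and Macroh2a1 (fold 2.21) had one in the R848 list alone. The Macroh2a1 peak had a pileup of 7, the lowest called in that library. Cenpa, the centromeric H3, had one in the untreated list alone (fold 2.98).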

How the data were processed

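KAT8 CUT&Tag was carried out on macrophages treated with R848 (1 library) or left untreated (1 library), grouped by the treatment label. The authors deposited 1 narrowPeak list per library. For each peak the deposited values are its score, the fold at its summit (a ratio to local background), and the −log10 p-value and −log10 q-value. The submitters' processing notes list MACS2 2.2.7.1, Bowtie 0.12.8, DiffBind and the build mm10, without saying how each was used. How duplicates and multiply mapping reads were treated is not given in the sources used here, nor is any control library. The lists held 44772 (R848) and 52001 (untreated) peaks, down to a −log10 p of 2.01 in each. Read totals were not used here.

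The pileup and background at each summit follow from 2 deposited values: the fold, which is pileup plus 1 over background plus 1, and the Poisson probability behind p. The pileup was whole within 0.05 for 99.996% of R848 and 99.998% of untreated peaks. Genes came from a RefSeq gene table for GRCm38.p6 (mm10), which holds no exons. Strand and start sites came from the RefSeq promoter table. Histone pseudogenes (3) were left out. Peaks overlapped where they shared at least 1 bp, and bedtools 2.31.1 gave the same gene and peak assignments. On simulated data for each library, 200 of 200 planted genes and 200 of 200 pileups were recovered. The simulation used the same window and formula, so it checks the code and not whether the deposited values follow that formula. Python 3.11.15 and scipy 1.17.1 were used. Named genes were those with the highest folds per class, those in 1 list only and the strongest of 3 related lists. Members, lists and tests were chosen with earlier results of these data known. Alternatives are given at the end.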

Additional observations from a re-analysis of the deposited data

How the results depend on the processing

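The peak threshold moved the counts most. With q of 0.05 or less in both lists, 26 histone genes had an R848 peak and 25 a peak in both lists, 1 had an R848 peak only, and there were 18 distinct R848 peaks. Then 17 R848 peaks overlapped an untreated peak and 15 untreated peaks an R848 peak. H1 genes with an untreated peak fell to 3, equal to the R848 count, H2B and H3 genes with an R848 peak to 7 and 3, and chromosome 13 genes with an R848 peak to 16. With −log10 q of at least 5, 7 genes had an R848 peak, 15 an untreated peak, 7 both and 8 an untreated peak only, at 5 R848 and 8 untreated distinct peaks. Shares of all genes at that level are not given here, so these counts have no comparison. With overlap of 50% of each peak, 12 R848 and 12 untreated peaks were shared. With summits in place of any base in the window, 1 gene had an R848 peak only. With windows of 3000 bp, 5 H1 genes had an R848 peak. Windows of 500 bp and summits within 250 bp kept each count they were applied to within 1.5 times. Lists of equal length changed no count, because the weak untreated peaks removed included none at a histone gene. Leaving out the linker histone genes outside the clusters could change no count, because they had no peak in either list. That alternative says nothing about stability. A q of 0.05 against any peak of the other list, an alternative added after the data were seen, kept its counts within 1.5 times. Another added then, a filter on scaled untreated pileups, removed no histone peak, because the lowest, 10, scales to 7.77 and the filter was set at 7, so it says nothing about stability. No paired analysis was possible because each group has 1 library, and no replicate could be left out. Depth limits weak peaks: a gene in 1 list only can lie just under the threshold in the other.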

Other observations

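A histone pseudogene carried a peak in both lists. H2ac14, an H2A pseudogene next to H2bc14, had a summit inside it in the R848 list (chr13:21721542-21721741, fold 3.04, pileup 10) and in the untreated list (chr13:21721559-21721758, fold 2.75, pileup 11). The peak counted for H2bc14 in the report is this one, and its summit lies at −453 bp (R848) and −379 bp (untreated) from the start site of H2bc14. The H2A pseudogene H2af-ps2, which stands apart from the clusters on chromosome 13, was listed in untreated cells alone (fold 2.75), and H2bu1-ps on chromosome 11 had none.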
